A study of Mus musculus with 2 samples.

Results

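The cells described here are neurons of the mouse arcuate nucleus and median eminence that carry Th transcripts with at least 1 other dopamine gene and little or no growth hormone-releasing hormone (Ghrh) or galanin (Gal) transcript. They numbered 117 of 7418 sequenced cells, 64 of 3939 in the dHet library and 53 of 3479 in the control library. A cell was selected when it held at least 2 unique molecular identifiers (UMIs, each standing for 1 captured transcript) of Th and at least 1.5 Th UMIs per 10000 UMIs of the cell (CP10K), and at least 1 UMI of Ddc, Slc6a3 or Slc18a2. It also had to hold under 5 CP10K of Ghrh, under 10 CP10K of each of Gal, Agrp and Pomc, and at least 5 CP10K of the neuronal genes Snap25, Stmn2 and Syt1 together. The levels of these genes therefore chose the cells and are given below as a description.

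The study profiled tdTomato-positive cells by droplet single-cell RNA sequencing (10x Genomics 3′ v3 chemistry) after sorting from CD-1 mice at postnatal day 10. The dHet library (Ins2-Cre;tdTomato+/-;Irx3/5+/-) came from mice heterozygous for both Irx3 and Irx5, which encode Iroquois homeobox transcription factors. The control library was Ins2-Cre;tdTomato+/-, so both groups carried the Cre driver and the reporter. Each library was 1 pool of 5 mice per the labels, so the values below carry no measure of how animals vary. The reporter was switched on by Cre from the insulin 2 promoter, which marks part of the hypothalamic neurons and their lineage, so the cells are those with present or past Cre activity. The labels do not state how much of the Irx3 and Irx5 loci the deletion covers.

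Dopamine is made from tyrosine in a pair of steps, by tyrosine hydroxylase (Th), which needs the biopterin cofactor, and by aromatic amino acid decarboxylase (Ddc). The vesicular monoamine transporter (Slc18a2) loads it into vesicles and the dopamine transporter (Slc6a3) takes it back up. In the arcuate nucleus, tuberoinfundibular dopaminergic neurons release dopamine at the median eminence, where it reaches the pituitary and restrains prolactin secretion, and prolactin acts back on them through its receptor, Prlr. Other arcuate neurons are known to express Th with growth hormone-releasing hormone or galanin, and these were kept out by the rule.

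The dopamine genes are shown by their promoter windows, since they decide which cells are described. Each runs from 250 bases before to 50 after the start site annotated in RefSeq, 5′ to 3′ on the gene's strand, in mouse build GRCm38.p6. Capitals mark matches to the cAMP response element (CRE, TGACGTCA), the NGFI-B response element (NBRE, AAAGGTCA) or the TATA box (TATAAA), searched on both strands. The windows are chr7:142899946-142900245 (minus strand) for Th, chr19:59260628-59260927 (plus strand) for Slc18a2, chr11:11898095-11898394 (minus strand) for Ddc and chr13:73536497-73536796 (plus strand) for Slc6a3.
Th: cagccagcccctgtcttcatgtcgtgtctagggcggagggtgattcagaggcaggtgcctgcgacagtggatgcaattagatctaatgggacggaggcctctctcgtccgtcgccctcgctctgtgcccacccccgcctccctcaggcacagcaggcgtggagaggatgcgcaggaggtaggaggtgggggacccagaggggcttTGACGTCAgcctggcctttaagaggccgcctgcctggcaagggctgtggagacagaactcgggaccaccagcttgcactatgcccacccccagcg
Slc18a2: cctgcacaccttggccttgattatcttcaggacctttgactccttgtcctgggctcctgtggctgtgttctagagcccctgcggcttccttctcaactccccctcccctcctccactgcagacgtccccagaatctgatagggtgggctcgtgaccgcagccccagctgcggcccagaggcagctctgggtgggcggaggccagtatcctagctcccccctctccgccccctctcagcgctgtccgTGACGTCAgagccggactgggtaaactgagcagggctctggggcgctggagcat
Ddc: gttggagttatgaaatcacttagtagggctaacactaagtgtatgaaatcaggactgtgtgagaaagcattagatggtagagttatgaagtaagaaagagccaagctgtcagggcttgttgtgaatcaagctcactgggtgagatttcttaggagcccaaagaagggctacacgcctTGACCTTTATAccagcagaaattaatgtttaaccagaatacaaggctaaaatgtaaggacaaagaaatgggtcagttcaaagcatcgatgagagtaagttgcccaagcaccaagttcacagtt
Slc6a3: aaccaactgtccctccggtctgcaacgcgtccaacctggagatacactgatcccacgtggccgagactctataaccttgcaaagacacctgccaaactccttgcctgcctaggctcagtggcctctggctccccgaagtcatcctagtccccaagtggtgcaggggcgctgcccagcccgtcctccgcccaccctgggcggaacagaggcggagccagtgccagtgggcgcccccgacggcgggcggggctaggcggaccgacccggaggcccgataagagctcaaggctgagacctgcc
The CRE began 45 bases before the start site in Th and 4 bases before it in Slc18a2. In Ddc the capitals hold an NBRE and a TATA match that overlap, both on the strand opposite to the gene. The Slc6a3 window held none of these letters, nor did the window of a second Ddc start site (chr11:11890359-11890658, minus strand), which is not printed. Which Ddc start site the selected cells use was not tested. Of 32851 mouse promoter windows of the same length, 1.79% held a CRE, 1.51% an NBRE and 13.6% a TATA match, so a match describes the window and does not show binding.

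The Th limit was reached by 193 of 3053 neurons in the dHet library and 134 of 2467 in the control library. At least 1 of the other dopamine genes was found in 119 dHet and 91 control neurons of these. The peptide limits then left out 55 dHet and 38 control cells, mostly with Ghrh at its limit (52 dHet and 37 control) and often with Gal at its limit as well (54 and 30). The lowest Th levels among selected cells were 1.51, 1.54 and 1.54 CP10K, and the highest among the 35 cells that missed only the Th limit were 1.48, 1.48 and 1.46 CP10K. A further 4 cells had passed that level with a single Th UMI and were not selected. No barcode of a selected cell occurred in both libraries, and 4 barcodes of the whole table did.

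Selected cells made up 1.62% of all dHet cells (95% Clopper-Pearson interval 1.25 to 2.07) and 1.52% of all control cells (1.14 to 1.99). Of neurons they made up 2.10% in the dHet library (1.62 to 2.67) and 2.15% in the control library (1.61 to 2.80), a ratio of dHet over control of 0.976 (0.667 to 1.43). The interval included equal shares, and it does not state how large a difference could have been detected. Neurons were 77.5% of dHet cells and 70.9% of control cells. All intervals cover counting error only.

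Depth was alike in the libraries. The median selected cell held 22476.5 UMIs and 5638.5 genes in the dHet library (range 3569 to 42454 UMIs) and 23620 UMIs and 5858 genes in the control library (9727 to 43765). Summed over the selected cells this gave 1439831 dHet and 1300433 control UMIs. Mitochondrial UMIs were 5.67% of the median dHet cell and 4.27% of the median control cell, against 5.91% and 4.55% in other neurons. Cells with Xist and no Y-linked transcript were 49 of 64 in the dHet library and 25 of 53 in the control library, and cells with Y-linked transcripts and no Xist were 13 and 27. In other neurons the shares with Xist and no Y-linked transcript were 63.7% and 48.9%. The sexes were thus mixed unequally in the pools, more so among the selected cells, and the part of sex or mitochondrial content in the differences below was not tested beyond the values given. Of the markers of other cell types, summed microglial and erythrocyte markers were at 0 in both libraries (8 of 8 and 2 of 2 genes), fibroblast markers at 0 and 3.08 UMIs per 1e6 UMIs (CPM), endothelial and mural markers at 4.86 and 3.08 CPM, and 12 astrocyte markers at 199 and 224 CPM, against 8266 and 6946 CPM in cells below the neuron limit. The 13 markers of tanycytes, glia of the ventricle wall, summed to 3058 and 3326 CPM, above other neurons (1715 and 1817 CPM) and below the cells under the neuron limit (7171 and 7779 CPM). Most of this was Nnat, 2914 and 3199 CPM, found in all 117 selected cells. The other 12 summed to 144 and 127 CPM, against 146 and 157 CPM in other neurons and 2265 and 2468 CPM in cells below the neuron limit, with Rax, Frzb and Adm at 0 in both libraries.

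Among the dopamine genes, Th (ENSMUSG00000000214, chromosome 7:142892752-142931128, GRCm38) had a lowest, median and highest level of 1.54, 2.91 and 18.5 CP10K over dHet cells and of 1.51, 3.65 and 11.7 CP10K over control cells. Most cells were near the lower end, with 51 of 64 dHet and 39 of 53 control cells under 5 CP10K and none at 20 CP10K or above. Ddc (chromosome 11) reached medians of 3.22 CP10K in dHet cells and 2.58 CP10K in control cells, with highest cells at 11.0 and 10.7. Slc18a2 (chromosome 19) reached medians of 2.75 and 2.36 CP10K, with highest cells at 27.1 and 12.8. Slc6a3 (chromosome 13), the gene most closely tied to dopamine reuptake, had medians of 0.444 and 0.344 CP10K. It was found in 40 of 64 dHet cells (62.5%) and 31 of 53 control cells (58.5%). With every cell thinned to 8000 UMIs, which left out 4 dHet cells and no control cell, the Slc6a3 shares were 35% and 34%, against 1.39% and 0.922% of other neurons and 0 of 373 dHet and 2 of 530 control cells below the neuron limit. The distributions of the libraries overlapped for all 4 genes.

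All 3 of Ddc, Slc6a3 and Slc18a2 were found together in 37 of 64 dHet cells and 29 of 53 control cells. Another 19 dHet and 15 control cells held only 1 of the 3, which was Ddc in 11 and 11 cells, Slc18a2 in 7 and 4 cells, and Slc6a3 in 1 dHet cell. The heat map of single cells shows that these cells were not spread evenly, and the label of dopaminergic neurons holds for only part of them. The selected cells fell into 5 clusters when grouped by variable genes. In clusters 1 to 3, which held 69 cells, 61 had all 3 genes. In clusters 4 and 5, which held 48 cells, 5 did. The selected cells are therefore called by their rule, not as a single cell type.

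**Figure D1:**
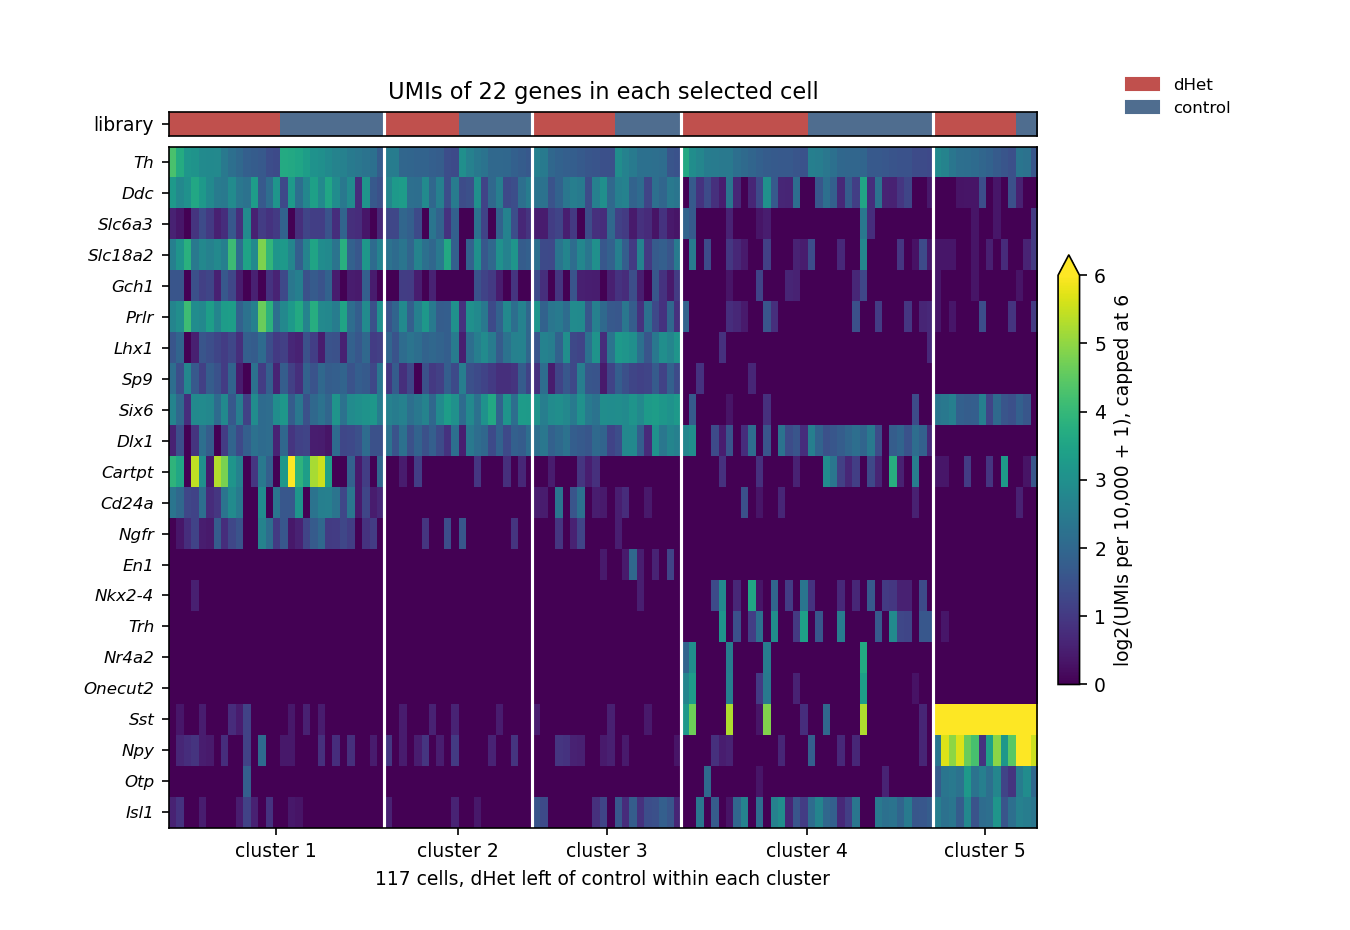
Heat map of gene levels (log2 of CP10K plus 1, colours capped at 6) in each of the 117 selected cells, grouped by cluster and, within a cluster, dHet cells left of control cells. Slc18a2, Prlr, Lhx1 and Sp9 fill most columns of clusters 1 to 3. In clusters 4 and 5, Lhx1 and Sp9 fill few columns, while Slc18a2 and Prlr are in more of them but mostly at low levels. Sst, Npy and Otp mark cluster 5.

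Levels across the clusters followed the same division and, since the same genes formed the clusters, describe them only. Th summed over both libraries was 664, 335, 324, 288 and 368 CPM in clusters 1 to 5, so it was present in all of them. Ddc was 595, 442, 376, 168 and 28.7 CPM. Slc18a2, the vesicular transporter, was 658, 413, 327, 47.9 and 21.5 CPM. Slc6a3, the reuptake transporter, was 100.3, 194, 78.5, 19.5 and 7.18 CPM, highest in cluster 2. Prlr, which the rule did not use, ran with the transporters at 703, 403, 322, 33.0 and 19.1 CPM. Median depth was 26026, 21147.5, 25496, 18208 and 34811.5 UMIs, so the cluster with least Slc6a3 was the deepest.

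**Figure D2:**
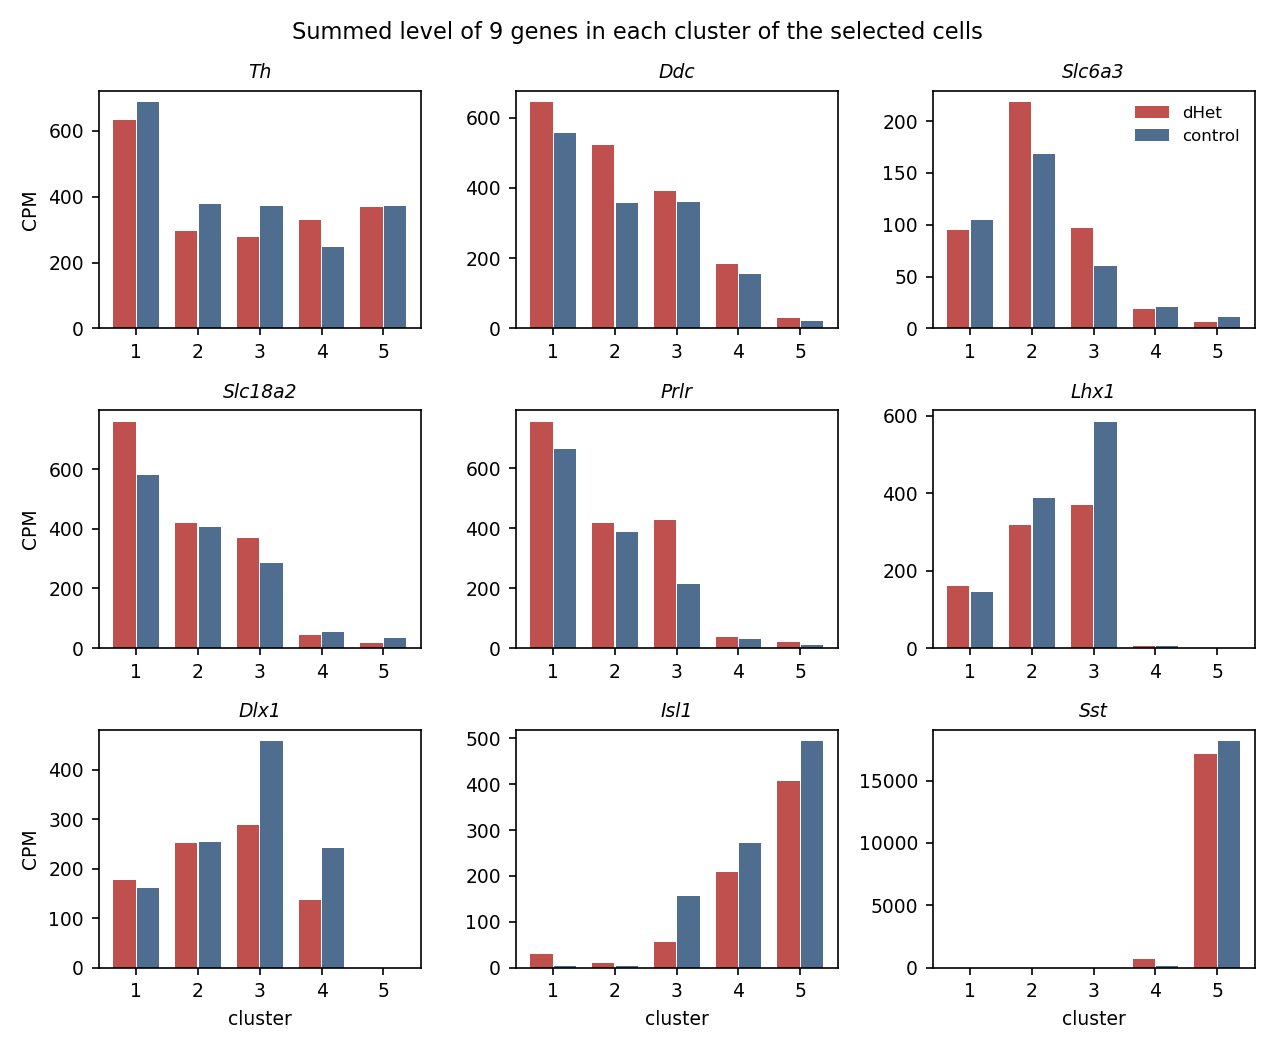
Level (CPM, UMIs summed over the cells of a library) of Th, Ddc, Slc6a3, Slc18a2, Prlr, Lhx1, Dlx1, Isl1 and Sst in each of the 5 clusters, with dHet bars left of control bars and every axis starting at 0. Th is present in every cluster of both libraries, Slc18a2 is 369 to 759 CPM (dHet) and 285 to 581 CPM (control) in clusters 1 to 3, and Sst stands at 17165 CPM (dHet) and 18148 CPM (control) in cluster 5.

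Clusters 1 to 3 differed from one another in other genes. Cluster 1 (15 dHet and 14 control cells) led with Cartpt, which encodes the CART peptide, Cd24a, and Ngfr, the low-affinity neurotrophin receptor. It held 26 cells with all 3 dopamine genes, and 13 of the 29 cells with a UMI of Esr1, the oestrogen receptor. Cluster 2 (10 and 10 cells) led with Aqp4, Klf2 and Mylk, and cluster 3 (11 and 9 cells) with Cd79a, Tcerg1l and En1. Aqp4, better known as an astrocyte water channel, was at 24.3 CPM in cluster 2. The homeobox gene Lhx1 was 151, 352 and 477 CPM in clusters 1, 2 and 3, against 5.99 CPM in cluster 4 and 0 UMIs in cluster 5. Six6, a homeobox gene of the ventral hypothalamus, was 499 to 679 CPM in clusters 1 to 3, 16.5 CPM in cluster 4 and 299 CPM in cluster 5. Calcr, the calcitonin receptor, was found in all 20 cells of cluster 2 and all 20 of cluster 3.

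Clusters 4 and 5 had Th with lower levels of the other dopamine genes. Cluster 4 (17 dHet and 17 control cells) led with Trh, thyrotropin-releasing hormone, and the homeobox genes Nkx2-4 and Hmx3, and had 7 of 34 cells with a Slc6a3 UMI. Cluster 5 held 11 dHet and 3 control cells and led with Npy, Sst and Otp, the neuropeptides Y and somatostatin and a homeobox factor of peptide neurons. Sst was at 17379 CPM in cluster 5, against 455 CPM in cluster 4 and 5.61 to 11.3 CPM in clusters 1 to 3. Most Sst of cluster 4 lay in its 5 cells with Nr4a2 UMIs, which held 295 Sst UMIs (3320 CPM). Isl1, a LIM homeobox factor of arcuate neurons, was 241 and 426 CPM in clusters 4 and 5 and 7.28 to 107 CPM in clusters 1 to 3.

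Nearly all selected cells had GABA genes. Gad1, glutamate decarboxylase 1, was 426 CPM in dHet cells and 417 CPM in control cells, and Slc32a1, the vesicular GABA transporter, was 284 and 233 CPM. UMIs of these or of Gad2 without Slc17a6, the vesicular glutamate transporter, were found in 60 of 64 dHet cells and 50 of 53 control cells. The other 4 dHet and 3 control cells had both kinds, and only 1 dHet cell had more Slc17a6 than GABA gene UMIs.

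Compared with other neurons of the same library, 91 of 7192 genes with at least 50 UMIs in the selected cells (1.27%) were at least 2-fold higher in both libraries, and 34 (0.473%) at least 2-fold lower, with 5 CPM added to each level. The dopamine genes are among the 91 by choice: the fold was 15.3 in dHet and 21.8 in control cells for Th, 14.6 and 18.0 for Slc18a2, 12.1 and 13.4 for Slc6a3, and 9.34 and 9.27 for Ddc. Of genes the rule did not use, Sp9, a zinc finger factor of GABAergic interneurons, had the highest fold, 12 and 16.4. Ngfr had 5.65 and 7.84, and Lhx1 4.33 and 7.91. Of the 30 measured forebrain and arcuate transcription factors of the list used, 12 were at least 2-fold higher in both libraries, among them Dlx1, Dlx2, Dlx5, Six6 and Pbx3. The selected cells and other neurons were at similar depth, and a fold over other neurons is a description of cells chosen by their transcripts.

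Prlr (ENSMUSG00000005268, chromosome 15:10177238-10349180, GRCm38) stood out among receptors. It was 315 CPM in dHet cells and 318 CPM in control cells, against 46.3 and 49.7 CPM in other neurons. With 5 CPM added to each level, this is a fold of 6.24 and 5.90. Over single cells its lowest, median and highest levels were 0, 2.50 and 23.9 CP10K in the dHet library and 0, 1.83 and 12.3 CP10K in the control library. After thinning to 8000 UMIs, 65.0% of dHet and 64.2% of control cells had a Prlr UMI, against 24.5% and 25% of other neurons and 2.14% and 2.08% of cells below the neuron limit. The Th cells left out for Ghrh or another peptide had a Prlr level of 19.9 CPM in the dHet library and 11.7 CPM in the control library, and their Slc6a3 level was 6.4 and 1.79 CPM. Both libraries thus had more Prlr summed over the selected cells than over the Th cells left out. Most of this lay in clusters 1 to 3, with 554 CPM in dHet and 462 CPM in control cells. In clusters 4 and 5 Prlr was 29.0 and 25.6 CPM, nearer to the Th cells left out. Across selected cells the rank correlation of Prlr and Slc18a2 levels was 0.79 in dHet and 0.73 in control cells, and that of Ddc and Slc18a2 was 0.69 and 0.63, each over cells of 1 library that share its depth and clusters. Th and Ddc had a rank correlation of 0.08 in dHet and 0.45 in control cells.

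Other hormone and peptide receptors were weaker. Trhr, the thyrotropin-releasing hormone receptor, was 43.1 CPM in dHet and 34.6 CPM in control cells. With 5 CPM added to each level, this was 3.90 and 2.86 times the level of other neurons. Calcr was 101.4 and 119 CPM, and Ramp3, which modifies calcitonin-family receptors, was 48.6 and 55.4 CPM. Lepr, the leptin receptor, had 1 UMI in each library. Of dopamine receptors, Drd2 had 9 dHet and 6 control UMIs and Drd1 had 8 and 4, while Drd3, Drd4 and Drd5 had none in either library.

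**Figure D3:**
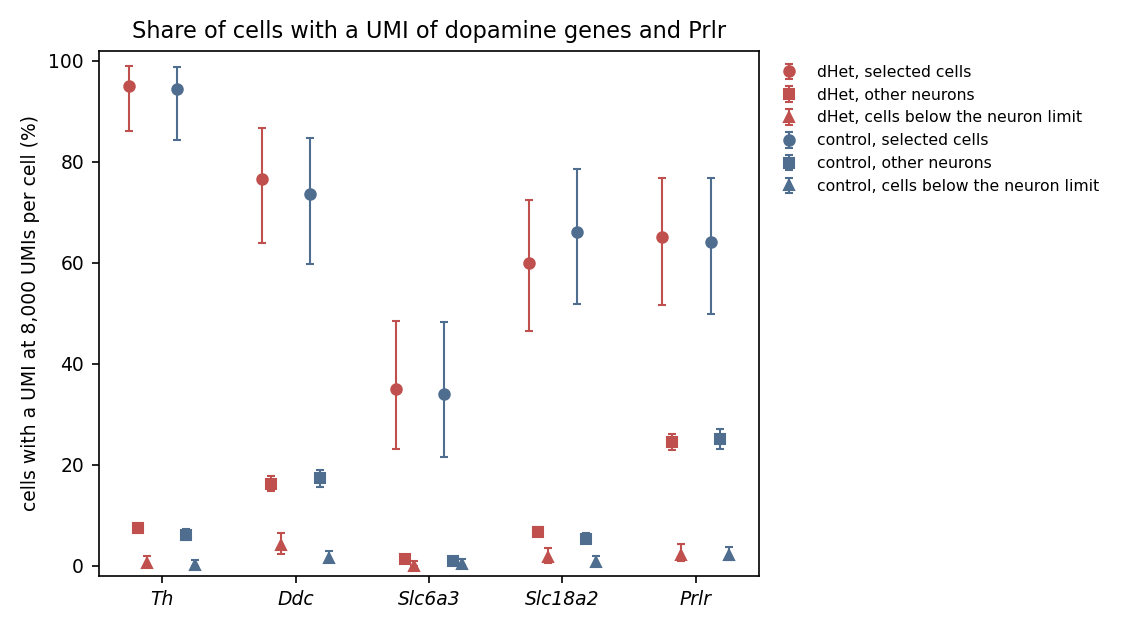
Share of cells with a UMI (percent, each cell thinned to 8000 UMIs) of the dopamine genes and Prlr in selected cells, other neurons and cells below the neuron limit, dHet left of control, with 95% Clopper-Pearson intervals. Slc6a3 is found in 35% of dHet and 34% of control selected cells, and in 1.39% and 0.922% of other neurons.

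The comparison of dHet with control cells asks what the loss of 1 copy of Irx3 and Irx5 goes with in these neurons. Irx3 and Irx5 themselves had 0 UMIs in all 117 selected cells, which allows up to 2.08 CPM in dHet cells and 2.31 CPM in control cells at 3 counts. The selected cells thus give no check of the genotype. Irx2, Irx4 and Irx6 were also at 0, and Irx1 had 4 UMIs in 1 dHet cell and none in control cells.

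The dopamine genes were near the same level in both libraries. Ddc was 335 CPM in dHet cells and 343 CPM in control cells, a ratio of 0.976. Slc6a3 was 75.7 and 76.9 CPM, a ratio of 0.984 (0.744 to 1.30), and Slc18a2 was 305 and 318 CPM, a ratio of 0.960. Th was 387 CPM in dHet cells and 438 CPM in control cells, a ratio of 0.883 (0.784 to 0.994), while in other neurons it was 20.6 and 15.3 CPM, a ratio of 1.34. Th chose the cells, so its ratio among them is a description. Within clusters 1 to 3 (36 dHet and 33 control cells, a grouping chosen after the values were seen), Th was 419.7 CPM in dHet and 519 CPM in control cells (0.809, 0.699 to 0.934), while in clusters 4 and 5 it was 348 and 275 CPM (1.27, 1.01 to 1.59). Over all selected cells the log2 ratio of Th was -0.18, but it was 0.20 in cells with Y-linked transcripts and no Xist and 0.17 after thinning to 8000 UMIs. In clusters 1 to 3 Ddc had a ratio of 1.17 (1.01 to 1.34), Slc18a2 of 1.19 (1.03 to 1.37) and Prlr of 1.20 (1.04 to 1.38). All of these lay inside 1.5-fold, but thinning gave a log2 ratio of 0.59 for Prlr, just past that limit, where it was -0.01 over all UMIs. Thinning was a single random draw, and weighting cells equally gave 0.26 for Prlr, inside the limit. In cells with Y-linked transcripts and no Xist the log2 ratios of Ddc, Slc6a3, Slc18a2 and Prlr were 0.44, 0.43, 0.40 and 0.37. By single clusters, Prlr was 756 CPM in dHet and 663 CPM in control cells of cluster 1, 418 and 387 CPM in cluster 2, and 429 and 214 CPM in cluster 3, so the libraries differed most in cluster 3, which held 11 dHet and 9 control cells. All 11 of these dHet cells had Xist and no Y-linked transcript, against 4 of the 9 control cells.

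Of the biopterin cofactor genes, 1 of 7 measured was at least 1.5-fold lower in dHet cells and none was higher, beside 2.57% of all 7192 measured genes lower and 2.46% higher. The lower gene was Gch1 (chromosome 14:47153895-47189413, GRCm38), which encodes GTP cyclohydrolase, the first and rate-limiting enzyme of biopterin synthesis. It was 47.9 CPM (69 UMIs) in dHet cells and 91.5 CPM (119 UMIs) in control cells, a ratio of 0.524 (0.384 to 0.710), against a ratio of 1.09 in other neurons. A Gch1 UMI was found in 30 of 64 dHet and 28 of 53 control cells. Most of the transcript was in clusters 1 to 3, where it was 75.3 CPM in dHet and 132 CPM in control cells (0.570, 0.409 to 0.787). It was lower in dHet cells in each of these clusters: 115 and 191 CPM in cluster 1, 38 and 64.5 CPM in cluster 2, 59.7 and 93.7 CPM in cluster 3. The log2 ratio was -0.87 over all selected cells but -0.11 without the 5 cells that held most Gch1 UMIs, -0.03 in cells of middle depth (between the 25th and 75th percentiles of UMIs) and -0.10 in cells with Y-linked transcripts and no Xist. The later enzymes Pts, Spr and Qdpr had ratios of 0.880, 0.852 and 1.09, and Pcbd1 had 1.08.

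Of genes that break down amines, Maoa, monoamine oxidase A, was 92.4 CPM in dHet and 57.7 CPM in control cells (1.60, 1.20 to 2.16). It was the only one of the 4 measured past 1.5-fold, beside 2.46% higher and 2.57% lower of all 7192 measured genes. The ratio of Maoa was 1.35 (0.933 to 1.97) in clusters 1 to 3 and 2.16 (1.29 to 3.76) in clusters 4 and 5. Its log2 ratio of 0.64 was -0.20 in cells with Th at 5 CP10K or above. Maoa lies on the X chromosome, and its log2 ratio was 0.58 in cells with Xist and no Y-linked transcript and 0.48 in cells with Y-linked transcripts and no Xist.

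**Figure D4:**
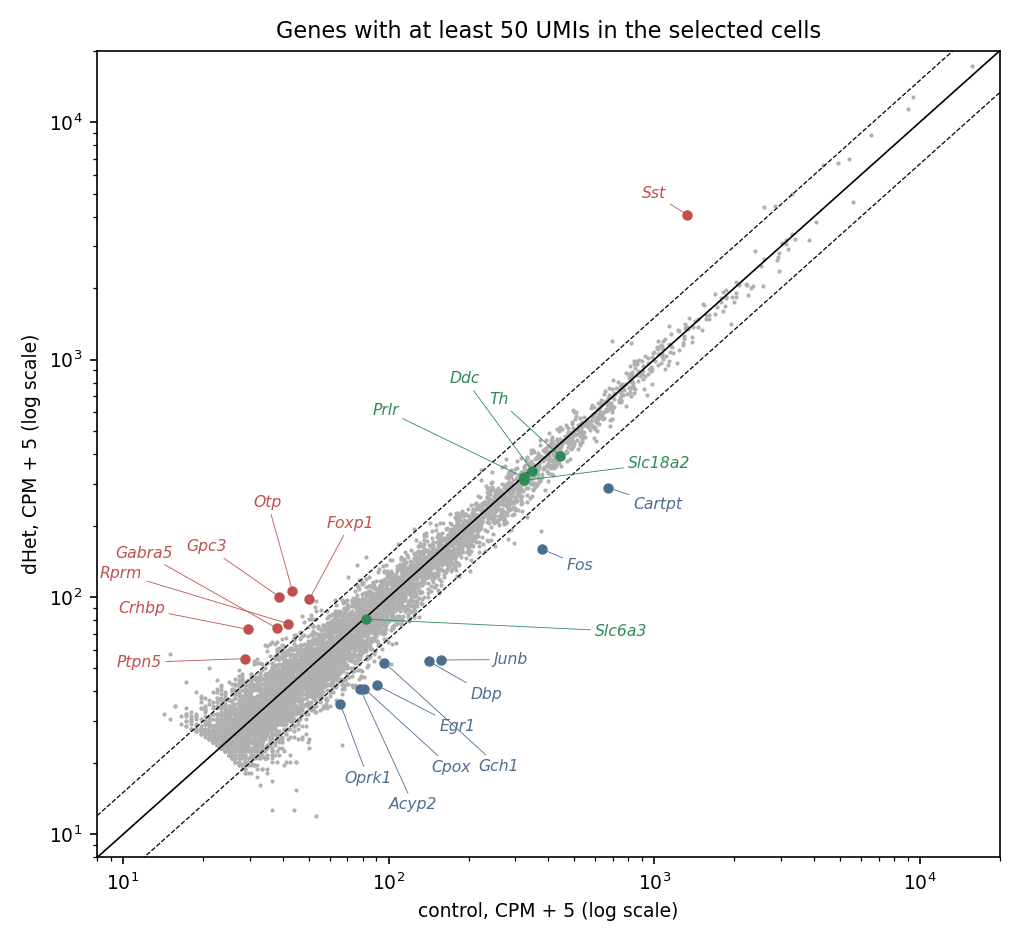
Level of each of 7192 genes in selected cells, dHet on the vertical and control on the horizontal axis (CPM plus 5, log scales), with dashed lines at 1.5-fold. Sst lies farthest above the diagonal among the labelled genes (4073 and 1323 CPM), Junb farthest below (49.3 and 153 CPM), and the dopamine genes lie near it.

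Over all measured genes, 177 of 7192 (2.46%) were at least 1.5-fold higher in dHet cells and 185 (2.57%) at least 1.5-fold lower. In other neurons, of which there were far more cells, 4 of the same genes (0.0556%) were higher and 15 (0.209%) lower. The median log2 ratio was -0.03 in both. With 64 and 53 cells, a ratio can rest on a few cells, and the counts have no replicate check. Leaving out, for each gene, the 5 cells that held most of its UMIs left 6379 genes measured. Of these, 197 (3.09%) were higher and 44 (0.69%) lower.

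The highest ratio among genes with at least 100 UMIs was that of Sst, 4073 CPM in dHet and 1323 CPM in control cells (3.08, 2.92 to 3.25). Its UMIs lay in 27 dHet and 11 control cells, and 52.9% of them in 5 cells. Below the neuron limit, Sst had 187 UMIs in 168 of 886 dHet cells and 135 UMIs in 119 of 1012 control cells. The 27 and 11 cells thus count any cell with a Sst UMI, and may include cells at that low level. Otp, 101.4 and 38.4 CPM (2.64), and Gpc3, a glypican, 95.2 and 33.8 CPM (2.81), were cluster 5 genes too. That cluster held 11 of 64 dHet and 3 of 53 control cells, and 10 of the 11 dHet cells had Xist and no Y-linked transcript, against 1 of the 3 control cells. Within cluster 5, Sst was 17165 CPM in dHet and 18148 CPM in control cells. In clusters 1 to 3, Sst had 10 dHet and 5 control UMIs, Otp 2 and 0, and Gpc3 1 and 1. The cells of cluster 5 are given as counts, since the genes that form the cluster are among those compared. In the 13 dHet and 27 control cells with Y-linked transcripts and no Xist, the log2 ratio turned round to -3.63 for Sst and -3.24 for Otp, where it was 1.62 and 1.29 over all selected cells. Of those cells, 0 dHet cells and 1 control cell were in cluster 5, so these 2 values cannot show a difference by sex pattern.

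Other genes were higher in dHet cells within clusters 1 to 3 as well. Crhbp, which encodes a protein that binds corticotropin-releasing hormone, was 68.1 CPM in dHet and 24.6 CPM in control cells (2.77, 1.84 to 4.26), and 125 and 35.6 CPM in clusters 1 to 3 (3.51, 2.32 to 5.44). Its UMIs in cluster 1 were 81 in 12 dHet cells and 24 in 9 control cells. Its log2 ratio of 1.30 was 0.65 without the 5 cells that held most Crhbp UMIs, 0.91 in cells with Xist and no Y-linked transcript, and 2.06 in cells with Y-linked transcripts and no Xist. Rasgrp1, an activator of Ras, was 131 and 70.7 CPM (1.85, 1.44 to 2.41), and had a ratio of 2.14 (1.64 to 2.82) in clusters 1 to 3. In other neurons Crhbp had a ratio of 0.666.

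**Figure D5:**
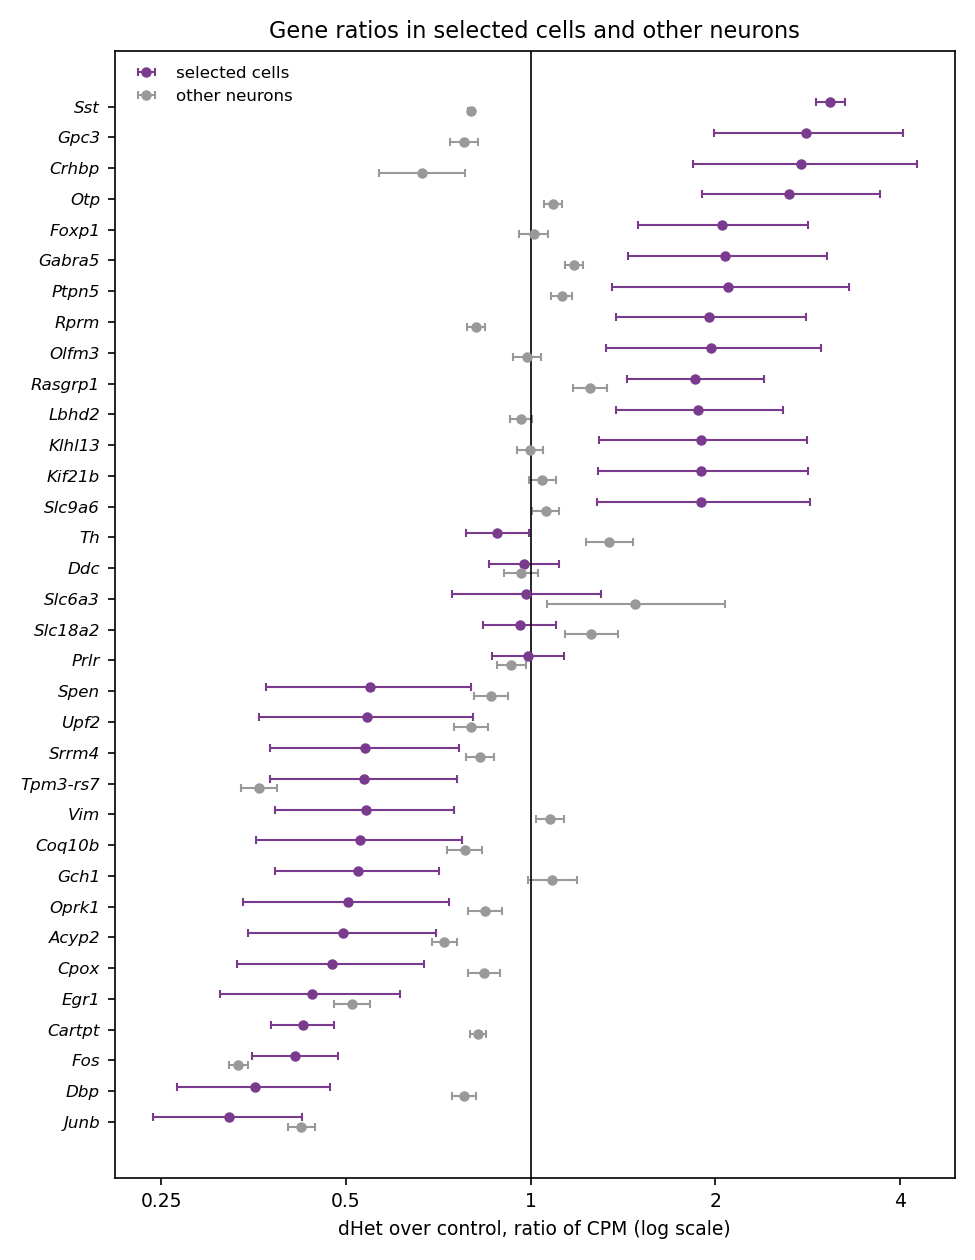
Ratio of dHet over control (log scale) with 95% exact conditional binomial intervals for named genes, in selected cells and, beside them, in other neurons. Fos, Junb and Egr1 lie below 1 in both kinds of cell, while Sst, Gpc3 and Crhbp lie above 1 in the selected cells and below 1 in other neurons.

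Of the neuropeptides, 11 were measured, of which Sst was higher and Cartpt and Gal were lower in dHet cells. Over all 7192 measured genes, 2.46% were higher and 2.57% lower. Cartpt was 283 CPM in dHet and 667 CPM in control cells (0.425, 0.377 to 0.479), found in 26 cells of each library, with 63.4% of its UMIs in 5 cells. Without those 5 cells its log2 ratio was -0.24, where it was -1.22 with them, and it was 0.17 in cells with Y-linked transcripts and no Xist. Gal was 47.2 and 96.9 CPM, but its upper end was limited by the rule. Npy was 596 and 495 CPM, and Vgf, a granule protein precursor, 609 and 488 CPM, both inside 1.5-fold. Of 12 measured genes of granules and peptide processing, only Pam, the peptide-amidating enzyme, was past 1.5-fold, at 336 CPM in dHet and 218 CPM in control cells (1.54, 1.33 to 1.80).

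Of 30 measured forebrain and arcuate transcription factors, 6 were higher and 4 lower in dHet cells, beside 2.46% higher and 2.57% lower of all 7192 measured genes. The median log2 ratio of these factors was -0.18 (-0.11 in other neurons). The higher factors included Nkx2-4, Onecut2, Otp, Foxp1 and Nr4a3. Foxp1 was 93.1 CPM in dHet and 45.4 CPM in control cells (2.05), and its log2 ratio of 0.96 was -0.53 in cells with Y-linked transcripts and no Xist. The ratio of Foxp1 was 1.35 (0.794 to 2.31) in clusters 1 to 3 and 2.11 (1.40 to 3.27) in clusters 4 and 5. Nkx2-4 and Onecut2 were in few cells, 9 dHet and 10 control cells for the first and 6 and 2 for the second. The lower ones were Dlx1, Dlx2, Nfix and Insm1. Dlx1, a homeobox factor that promotes GABAergic fate, was 159 and 246 CPM (0.646, 0.543 to 0.768), found in 46 of 64 dHet and 49 of 53 control cells. In clusters 1 to 3 the ratio of Dlx1 was 0.859 (0.705 to 1.05), and in clusters 4 and 5 it was 0.359 (0.244 to 0.523). Dlx1 had no UMI in cluster 5, so its 45 dHet and 82 control UMIs of clusters 4 and 5 all lay in cluster 4. Its log2 ratio of -0.61 was 0.07 in cells of middle depth. None of the factors was lower by 1.5-fold without cluster 5. Lhx1 was 151 and 226 CPM (0.667, 0.557 to 0.797), and 274 and 335 CPM in clusters 1 to 3 (0.818, 0.683 to 0.979), but its log2 ratio of -0.57 was 0.11 in cells of middle depth.

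Of 19 measured immediate early and dissociation response genes, which are switched on within minutes of stimulation or cell handling, 7 were lower in dHet cells and 2 higher. The same list had 8 lower in other neurons, with a median log2 ratio of -0.40 there and -0.17 in the selected cells. Over all 7192 measured genes, 2.57% were lower and 2.46% higher in the selected cells, and 0.209% were lower in other neurons. Fos was 154 CPM in dHet and 373 CPM in control cells (0.413, 0.351 to 0.486), against a ratio of 0.334 in other neurons. Junb was 49.3 and 153 CPM (0.322, 0.242 to 0.425), against 0.423 in other neurons. Egr1 was 37.5 and 85.4 CPM (0.439), against 0.511. Over single cells Fos spanned 0 to 23.5 CP10K in the dHet library and 0 to 24.2 CP10K in the control library, so the libraries overlapped. Nr4a2 and Nr4a3, orphan nuclear receptors, were the 2 higher genes: Nr4a2 had 36 UMIs in 4 dHet cells and 16 UMIs in 1 control cell. Dbp, a clock output factor outside this list, was 48.6 and 137 CPM (0.355). In the cells with Y-linked transcripts and no Xist the direction turned, with log2 ratios of 1.17 for Fos, 0.43 for Junb and 0.51 for Egr1 and none of the list lower by 1.5-fold, while in cells with Xist and no Y-linked transcript they were -2.12, -2.46 and -1.80. The log2 ratio of Dbp was -0.84 and -1.45 in these groups of cells.

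Of 6 measured prolactin signalling genes, none was past 1.5-fold in either direction. Here and for the lists that follow, the share over all 7192 measured genes was 2.46% higher and 2.57% lower. Prlr had a ratio of 0.991 (0.865 to 1.13), Stat5b, which carries the signal to the nucleus, 0.903, and the feedback inhibitor Socs2 1.22. Ptpn11, a phosphatase of the pathway, was closest to the limit at 1.49 (1.14 to 1.94). Of 10 measured hormone receptors none was past it, and of 13 leptin signalling genes only Pik3r1, which regulates PI3 kinase, was higher, 113 CPM in dHet and 72.3 CPM in control cells (1.56, 1.20 to 2.03). Of 26 measured pacemaker and calcium channel genes, 2 were lower, among them Cacna2d3, with a ratio of 0.608 (0.436 to 0.844). Cacna2d3 had a ratio of 0.761 (0.487 to 1.18) in clusters 1 to 3 and 0.431 (0.255 to 0.718) in clusters 4 and 5. Of 14 heat shock chaperones, Chordc1 was lower (0.615, 0.479 to 0.788), and its ratio in other neurons was 0.709. The log2 ratio of Pik3r1 was -0.05 in cells with Y-linked transcripts and no Xist, where it was 0.60 over all selected cells.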

How the data were processed

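Viable tdTomato-positive cells were sequenced as 1 dHet and 1 control library. Cell Ranger (3.0.2, per the file headers) counted the UMIs on build mm10, named in the submitters' processing notes. No gene annotation is named in the sources used here. The labels' protocols name about 5000 loaded cells a genotype, and the deposited matrices hold 4278 dHet and 3694 control barcodes. The merged table the authors deposited holds raw UMI counts per gene and cell for 3939 dHet cells (71827597 UMIs) and 3479 control cells (63100794 UMIs). Of its 34087726 non-zero entries in 20178 shared genes, 1483 differed from the matrices.

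Cells were selected from that table. UMIs were summed over the selected cells of a library and divided by their total (CPM). Genes with at least 50 UMIs were measured, and a gene was counted as higher or lower at 1.5-fold with 5 CPM added to each side. The ratio of dHet over control printed is the plain one, with an exact conditional binomial 95% interval. Folds over other neurons have 5 CPM added to each level. With 1 library a genotype no test across animals exists. Clusters came from scanpy 1.11.5 (2000 variable genes, 20 principal components, 15 neighbours, Leiden resolution 0.8). Scrublet at an expected 4% marked 21 dHet cells (0.533%) and 23 control cells (0.661%), none of them selected, and no cell was removed. The members and lists were chosen with earlier results of these data known. The genes named are those of the rule and of the dopamine, biopterin, prolactin, Iroquois and sex-linked lists, the 15 highest and 15 lowest ratios with at least 100 UMIs, up to 4 genes of each other list, and the 20 highest folds over other neurons. Some of these genes are not reported here. Chosen after their values were seen are the genes named for a cluster, for their nearness to the limit or for a low level, and the values by cluster. Counting was tested on simulated data, drawn for each library from pooled gene levels without variation between cells. That check cannot cover genes whose UMIs lie in few cells. Alternatives were other limits of the rule, cells of 1 sex pattern, subsets of clusters, other pseudocounts, and other depths, among them cells of middle depth (between the 25th and 75th percentiles of UMIs).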

Additional observations from a re-analysis of the deposited data

Results flagged for a closer look

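The ratio of dHet over control differed in direction between the selected cells and other neurons for 5 named genes, with counting intervals on opposite sides of 1. The difference was not tested across animals. Sst had a ratio of 3.08 in the selected cells and 0.80 in other neurons, Gpc3 of 2.81 and 0.780, Crhbp of 2.77 and 0.666, and Rprm of 1.96 and 0.815. Vim, which encodes the intermediate filament protein vimentin, had a ratio of 0.538 in the selected cells and 1.08 in other neurons. Sst and Gpc3 UMIs lay mainly in the 11 dHet and 3 control cells of cluster 5, and those of Crhbp mainly in the 15 dHet and 14 control cells of cluster 1. Those of Rprm and Vim lay mainly in clusters 4 and 5. In clusters 1 to 3 the ratio was 0.606 (0.184 to 1.79) for Rprm and 0.533 (0.244 to 1.10) for Vim. In cells with all 3 dopamine genes it was 1.37 for Rprm and 1.09 for Vim.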

How the results depend on the processing

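No paired analysis was possible because each genotype had 1 library. The share of selected cells among neurons (0.976, dHet over control) kept within its interval under the other limits and cells tried, but was 0.553 in cells with Y-linked transcripts and no Xist. The count of genes higher by 1.5-fold (177 of 7192, 2.46%) was 100 of 2649 (3.78%) with Th at 5 CP10K or above. It was 270 of 5759 (4.69%) in cells with Xist and no Y-linked transcript. With 20 CPM added it was 38 of 7192 (0.528%), and with genes of at least 20 UMIs 372 of 9708 (3.83%). The count lower (185 of 7192, 2.57%) was 53 of 7192 (0.737%) with 20 CPM added and 390 of 9708 (4.02%) with at least 20 UMIs. It was 44 of 6379 (0.69%) without the 5 cells with most UMIs of each gene. The share lower rose to 6.72% (178 of 2649) with Th at 5 CP10K or above. In cells with Y-linked transcripts and no Xist it was 7.26% (262 of 3611). Of the immediate early list, 7 lower genes became 4 with Th at 5 CP10K or above, 4 at middle depth, 4 after thinning, 4 in clusters 1 to 3, 2 without the 5 cells and 0 in cells with Y-linked transcripts and no Xist. Of the transcription factors, 6 higher became 2 with Th at 5 CP10K or above, 1 in cells with Y-linked transcripts, 3 after thinning and 3 without the 5 cells. Their 4 lower became 2 with at least 2 dopamine genes, 2 with all 3, 2 at middle depth, 2 in cells with Xist, 2 with cells weighted equally, 1 in clusters 1 to 3, 1 with 20 CPM added, 0 without cluster 5, 0 after thinning, 0 without the 5 cells and 9 with at least 20 UMIs. The subsets by cluster and by all 3 dopamine genes were chosen after seeing the data.

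Of 55 named genes, 48 were past 1.5-fold over all selected cells. Of these, 20 turned direction in the 13 dHet and 27 control cells with Y-linked transcripts and no Xist. Their log2 ratios there were -3.63 for Sst, -1.77 for Gpc3, -3.24 for Otp, -0.53 for Foxp1, -1.81 for Gabra5, -0.17 for Rprm, -0.93 for Olfm3, -0.64 for Lbhd2, -0.34 for Nkx2-4, -0.078 for Onecut2 and -0.052 for Pik3r1, and 0.43 for Junb, 1.17 for Fos, 0.17 for Cartpt, 0.51 for Egr1, 0.11 for Coq10b, 1.44 for Vim, 0.23 for Srrm4, 2.08 for Npas4 and 1.02 for Btg2. Of the cells with Y-linked transcripts and no Xist, 0 dHet cells and 1 control cell were in cluster 5. Sst, Gpc3, Otp and Lbhd2 were among the leading genes of that cluster, so their turns rest on few cells. In clusters 1 to 3 the log2 ratio was -0.00014 for Gabra5, -0.043 for Ptpn5 and -0.48 for Rprm, and without cluster 5 it was -0.62 for Lbhd2. Thinning gave -0.062 for Ptpn5 and -0.55 for Onecut2. Middle depth gave -0.65 for Lbhd2, 0.072 for Dlx1 and 0.16 for Nfix. Without the 5 cells it was -0.17 for Lbhd2, 0.053 for Nfix, -0.58 for Nkx2-4 and 0.076 for Npas4. Th at 5 CP10K or above gave 0.21 for Oprk1, -0.20 for Maoa and 1.02 for Nfix. At least 2 dopamine genes gave -0.50 for Nkx2-4, and all 3 gave 0.093 for Vim, -0.027 for Nkx2-4 and 0.29 for Gal. Cells with Xist gave -5.87e-05 for Nr4a3. None of the 48 turned direction with the deposited filtered matrices, with peptides under 2 CP10K or with cells weighted equally. The matrices gave the same 64 dHet and 53 control cells and 2 more of each library, so little could change there. Equal weighting used the same cells. Leaving out doublets could change nothing, since no selected cell was called one, and an added CPM cannot turn a direction. Of the other 7 genes, Th, Ddc, Slc6a3, Slc18a2, Prlr, Lhx1 and Sp9, all inside 1.5-fold, 5 turned in cells with Y-linked transcripts and no Xist, and 4 each at middle depth, in clusters 1 to 3, without cluster 5, after thinning, with cells weighted equally, with at least 2 dopamine genes and without the 5 cells. With the filtered matrices, with all 3 dopamine genes and with ratios centred on the median gene 2 turned, and 1 with Th at 5 CP10K or above. The cause of these shifts was not tested, beyond the fewer cells and genes that each choice leaves. With 64 and 53 cells, genes under about 50 UMIs were too shallow to measure.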

Other observations

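All 52 Nr4a2 UMIs of the selected cells lay in 5 cells of cluster 4, 4 dHet and 1 control, which were picked out after their values were seen. Nr4a2 encodes an orphan nuclear receptor that midbrain dopamine neurons need. These 5 cells also held all 11 Onecut3 UMIs, 51 of the Onecut2 UMIs (6 in the other 112 cells) and 58 of the Lpl UMIs (4 in the others). Each had a Slc6a3 UMI and 3 to 157 Sst UMIs, 295 in all. They had 65 UMIs of Gad2, 4 to 27 in each, yet none of Gad1, which allows up to 33.8 CPM, while 111 of the other 112 selected cells had a Gad1 UMI and their summed level was 436 CPM. Lhx1 and Sp9 were also at 0 UMIs in the 5 cells. Among other neurons, 4 cells (3 dHet and 1 control) had at least 2 UMIs of Nr4a2 and of Onecut2, and Gad1 was found in 2 of them.

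En1, a homeobox gene of the midbrain and hindbrain, was found in 6 selected cells, all in cluster 3, with 1 UMI in 1 dHet cell and 17 UMIs in 5 control cells. Other neurons held 48 dHet and 34 control UMIs of it. The dHet cell with more Slc17a6 than GABA gene UMIs had 23 UMIs of Slc17a6, 1 of Gad1, 10 of Th, 6 of Ddc, 14 of Trh and 15 of Adcyap1, the gene of the peptide PACAP. Sncg, the gene of gamma-synuclein, had 67 UMIs in 5 dHet cells and none in control cells, and 57 of these were in the cells with Nr4a2.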
